A study of Homo sapiens with 12 samples.

Results

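Amino acid transporters are membrane proteins that carry amino acids into and out of the cell. The transcripts of 10 of them were followed here in a human chronic myeloid leukemia line and in its imatinib-resistant derivative, with and without lycorine. The members are SLC3A2, SLC7A5, SLC7A11, SLC43A1, SLC1A5, SLC1A4, SLC38A1, SLC38A2, SLC7A1 and SLC6A9. They were chosen by symbol from the 19447 symbols of the deposited table, and all 10 passed the filter on low counts in every comparison. They encode carriers of essential, neutral and basic amino acids, of cystine and of glycine.

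Messenger RNA was sequenced in 12 libraries, 3 in each of 4 groups. K562, a BCR-ABL-carrying line with erythroid features, was the untreated control. K562+L was K562 given lycorine, a plant alkaloid, at 6 µM. K562/IM was the line that the study raised from K562 in stepwise imatinib, a BCR-ABL inhibitor, and then kept in 5 µM of the drug. The fourth group is labelled K562/IM+L, for the same resistant line with 6 µM lycorine. The time of exposure before sequencing, and whether replicates were separate cultures, are not given in the sources used here, so that p-values measure the spread between these libraries, which may be technical. In bulk RNA, fewer cells of a kind and less RNA per cell cannot be told apart.

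The fourth group is numbered G2 in the labels and G6 in the study's figures, and its 3 libraries are called the labelled libraries here. Of 1272 genes that separated the 2 untreated lines, 996 (78.3%) lay nearer K562 than K562/IM in these libraries. ABCB1, which encodes the drug efflux pump P-gp, ranged from 21.9 to 25.9 CPM (counts relative to the TMM-normalized library size) in K562/IM, from 1.68 to 1.86 in K562 and from 0.488 to 1.06 in these libraries. At the protein level, the study reported less P-gp in K562/IM given lycorine than in K562/IM alone. Directions drawn from the labelled libraries below rest on the label, which was kept as deposited. Total counts ran from 75093844 to 107344598 per library, and the members' own counts from 599 to 56177. Of 29 erythroid genes, at least 27 had a mean of 1 CPM or more in every group. Their summed level was 10160 to 13034 CPM in K562, 7893 to 8544 in K562+L, 5044 to 5163 in K562/IM and 49021 to 66226 in the labelled libraries.

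Many of these carriers work in pairs or in exchange. SLC3A2 is a heavy chain that brings light chains to the cell surface. With SLC7A5 it forms the LAT1 exchanger, which imports leucine and other large neutral amino acids, and with SLC7A11 it forms system xc-, which imports cystine in exchange for glutamate. SLC1A5 and SLC1A4 exchange small neutral amino acids, glutamine among them for SLC1A5. SLC38A1 and SLC38A2 bring in glutamine and other small neutral amino acids together with sodium. SLC7A1 imports arginine and lysine, SLC6A9 imports glycine, which developing red cells use to make haem, and SLC43A1 carries large neutral amino acids without a heavy chain. Several of the genes are known targets of ATF4, the transcription factor that responds to amino acid shortage, which binds a composite C/EBP-ATF element.

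In GRCh38 (GENCODE release 29) the heavy chain SLC3A2 at chr11:62856102-62888875 and SLC43A1 at chr11:57484534-57515786 lie on the same chromosome. The light chain genes are SLC7A5 at chr16:87830023-87869488 and SLC7A11 at chr4:138164097-138242349. The exchangers are SLC1A5 at chr19:46774883-46788594 and SLC1A4 at chr2:64988477-65023865. The sodium-coupled carriers are neighbours on chromosome 12, SLC38A1 at chr12:46183063-46270017 and SLC38A2 at chr12:46358189-46372867. The remaining members are SLC7A1 at chr13:29509410-29595688 and SLC6A9 at chr1:43991500-44031467. Counts are over whole genes, so that transcript isoforms were not separated.

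Promoter windows of 300 bases, from 250 before to 50 after each annotated start, were available from RefSeq (GRCh38.p14) for 9 of the 10 members, in 16 windows. SLC7A11 was the member without an entry. The letters TGATGNAA, which stand here for the C/EBP-ATF element, were searched on both strands and were found in 5 of the 9 members, against 4.46% of 27305 genes. By window they were found in 5 of 16, against 3.62% of 35116 windows. Several members were already known as ATF4 targets, so that this contrast may reflect the choice of genes and is no test. The matches are shown because these genes are read against ATF4 below, with the matched letters in capitals, 5′ to 3′ on the strand of the gene.
SLC1A4, chr2:64989381-64989410, plus strand, first matched base 7 before the start: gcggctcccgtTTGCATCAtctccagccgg
SLC3A2, chr11:62881719-62881748, plus strand, first matched base 38 after the start: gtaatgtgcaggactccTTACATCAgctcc
SLC38A1, chr12:46266502-46266531, minus strand, first matched base 4 before the start: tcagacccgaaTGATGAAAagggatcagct
SLC7A1, chr13:29595663-29595692, minus strand, first matched base 8 after the start: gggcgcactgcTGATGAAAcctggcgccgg
SLC1A5, chr19:46784893-46784922, minus strand, first matched base 97 before the start: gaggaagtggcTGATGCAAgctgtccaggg

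The core of the antioxidant response element, bound by NRF2, was searched as TGACNNNGC. It was found in 4 of the 9 members against 16.1% of all genes, and in 4 of their 16 windows against 13.3% of all windows. No match of it overlapped a match of the C/EBP-ATF letters. The windows of the heavy chain and of its LAT1 partner both held it.
SLC3A2, chr11:62881651-62881680, plus strand, first matched base 37 before the start: acgagggtgggTGACTCAGCgtcctccttc
SLC7A5, chr16:87869491-87869520, minus strand, first matched base 2 before the start: ggcggggttccTGACGCAGCtgcgggcggc
SLC7A1, chr13:29595755-29595784, minus strand, first matched base 85 before the start: gtgcccggcggTGACGCGGCcgagcgggcc
SLC1A5, chr19:46787386-46787415, minus strand, first matched base 111 before the start: tcctggatcttGCGAGGTCAgctcccgctc
The E-box CACGTG, read by MYC, was found in SLC1A5, SLC43A1 and SLC7A5, against 8.77% of all genes (3 of 16 windows, against 7.26%). The GATA motif, searched as AGATAA and with T as its first or G as its last letter, was found in SLC38A2 and SLC43A1, against 29.1% of all genes. A match describes letters in a window and not a bound site.

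Levels can be compared between genes only per length of transcript, and CPM per kilobase of annotated exon was used for that. In K562 the glutamine exchanger SLC1A5 stood highest, at 149 ± 12.5 (SD, n = 3) CPM per kb. SLC7A5 (62.0 ± 2.07), SLC3A2 (56.0 ± 5.47) and SLC38A2 (48.1 ± 8.91) followed, and the ranges of neighbours in that order overlapped. SLC38A1, SLC43A1 and SLC7A1 lay between 13.1 and 22.0 CPM per kb on average, again with overlapping neighbours. SLC1A4 (9.09 ± 0.184), SLC7A11 (6.40 ± 1.80) and SLC6A9 (4.87 ± 0.397) were the lowest, with SLC7A11 and SLC6A9 overlapping. By this length SLC1A5 was first in all 4 groups and overlapped no other member. The order of SLC1A5 and SLC3A2 depends on the length taken. SLC3A2 has 5178 bases of annotated exon but 2222 in its longest transcript, and SLC1A5 has 3332 and 2882. The second place was held by SLC3A2 in K562+L and in the labelled libraries, and by SLC38A2 in K562/IM. The 10 levels summed to 385 ± 8.72 CPM per kb in K562, 406 ± 16.99 in K562+L, 343 ± 2.12 in K562/IM and 277 ± 9.30 in the labelled libraries.

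**Figure D1:**
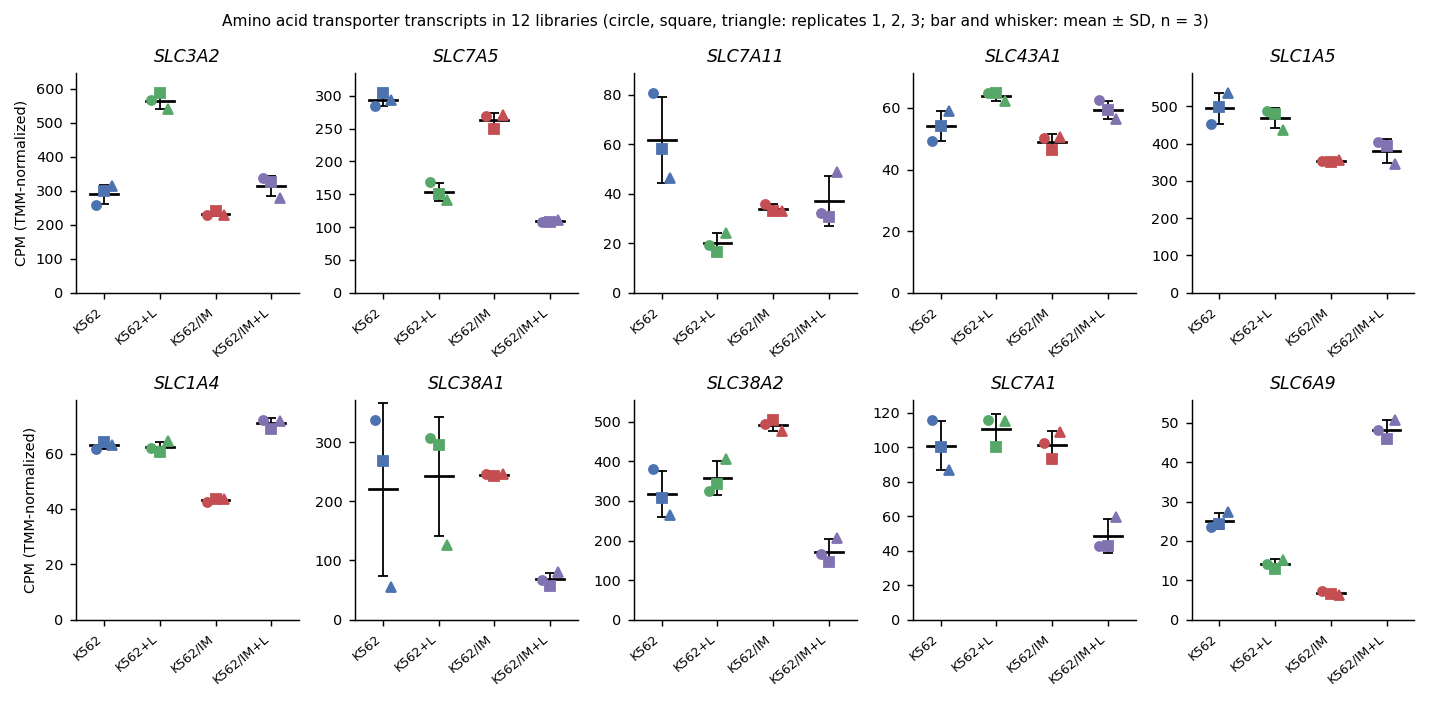
CPM of each transporter (vertical axes, each starting at 0) in the 3 libraries of each group (symbols), with the mean and SD as bar and whiskers. SLC3A2 is high in K562+L, SLC7A5 is low in both groups given lycorine, SLC6A9 is high in the labelled libraries, and the third K562 library lies far below the others for SLC38A1.

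In K562, lycorine was followed by a rise of the heavy chain and a fall of both of its light chains among the members. Of the 10 members, 1 was higher (SLC3A2) and 3 were lower (SLC7A5, SLC7A11, SLC6A9) at an adjusted p under 0.05 from edgeR's quasi-likelihood test. Over the 12927 genes tested, 18.2% were called higher and 19.0% lower. With an absolute log2 fold change over 1 as well, SLC7A11 alone was called, against 6.39% of all genes.

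SLC3A2 stood at 258, 298 and 313 CPM in the 3 K562 libraries and at 567, 586 and 539 in K562+L. All 3 treated libraries lay above all 3 controls, and the log2 fold change was 0.96 (SE 0.092, adjusted p = 4.4e-04). SLC7A5 fell from 284, 304 and 294 CPM to 169, 149.9 and 142, with a log2 fold change of -0.94 (SE 0.091, adjusted p = 4.4e-04). The SLC7A5 groups did not overlap either, and the heavy chain and its LAT1 partner thus moved in opposite directions.

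SLC7A11, the cystine carrier, had 80.6, 58.2 and 46.4 CPM in K562 and 19.2, 16.6 and 24.3 in K562+L. Its lowest control library was above its highest treated library, though the K562 libraries differed 1.73-fold among themselves. The log2 fold change was -1.62 (SE 0.22, adjusted p = 0.0016). SLC6A9 fell from 23.5, 24.4 and 27.4 to 14.3, 13.0 and 15.3 CPM, without overlap, with a log2 fold change of -0.83 (SE 0.11, adjusted p = 0.0014). Of the 29 erythroid genes, 11 were lower and 4 higher in K562+L, and their part in the fall of SLC6A9 was not tested. The 4 transporter calls held in each of the 17 alternative fits of this comparison.

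The other 6 members did not pass. SLC43A1, the heavy-chain-free carrier, had 49.2, 54.1 and 59.0 CPM in K562 and 64.8, 64.7 and 62.2 in K562+L. The groups did not overlap, and the log2 fold change of 0.24 (SE 0.093, adjusted p = 0.076) missed the threshold. It passed with library size alone (0.26, adjusted p = 0.046), with all 12 libraries in the fit (0.24, adjusted p = 0.029) and without K562 replicate 3 (0.30, adjusted p = 0.045). Intervals here and below use the SE with a normal quantile, which is too narrow for so few libraries, and are approximate. They ran from -0.17 to 0.13 for SLC1A4 and from -0.26 to 0.090 for SLC1A5 (nominal 95%, log2 scale). For SLC7A1 and SLC38A2 they ran from -0.11 to 0.37 and from -0.11 to 0.45.

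SLC38A1, the sodium-coupled glutamine carrier, could not be read with that precision. It stood at 337, 268 and 56.0 CPM in K562 and at 306, 294 and 127 in K562+L, so that the third library of each group was the lowest. The highest K562 library was 5.97 times the lowest, and 13 of the 9330 genes compared spread more widely in that group. Its log2 fold change was 0.14 (SE 0.58, adjusted p = 0.87), with a nominal 95% interval from -1.004 to 1.28. In the resistant line its 3 libraries lay between 242 and 246 CPM.

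The light chains of SLC3A2 were therefore summed. SLC7A5, SLC7A6 (y+LAT2, a light chain that exchanges basic for neutral amino acids), SLC7A7, SLC7A8 (LAT2), SLC7A10 and SLC7A11 can all join this heavy chain. Their summed level per heavy chain, in CPM per kb, was 2.08, 1.78 and 1.59 in K562 and 0.683, 0.627 and 0.719 in K562+L. The size of this ratio depends on the length taken for each gene, and only its differences between groups are read. SLC3A2 has 5178 bases of annotated exon but 2222 in its longest transcript. The log2 difference was -1.42, and p was 0.1 by a two-sided exact permutation test, the smallest value that 3 against 3 libraries allow. SLC7A5 made up 61.6% ± 3.40 (SD, n = 3) of the light chain level in K562 and 44.0% ± 3.84 in K562+L. SLC7A6 made up 27.9% ± 2.02 and 44.4% ± 3.499, while its own level did not pass (log2 fold change 0.21, SE 0.11, adjusted p = 0.15).

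In K562/IM the ratio was 2.12, 1.90 and 2.16, and it overlapped that of K562 (exact p = 0.2). It was 0.658, 0.693 and 0.853 in the labelled libraries. All 3 lay below all 3 K562/IM libraries, by 1.49 on the log2 scale (exact p = 0.1). SLC7A5 made up 59.97% ± 0.496 of the light chains in K562/IM and 52.2% ± 1.36 in the labelled libraries. SLC7A11 made up 3.82% ± 0.192 and 8.67% ± 2.01, while its own level was 3.52 ± 0.176 and 3.84 ± 1.05 CPM per kb and the summed light chains went from 92.3 ± 3.43 to 44.1 ± 1.77. SLC7A10 was at or near 0 in all libraries, and SLC7A7 averaged under 1 CPM in all 4 groups.

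**Figure D2:**
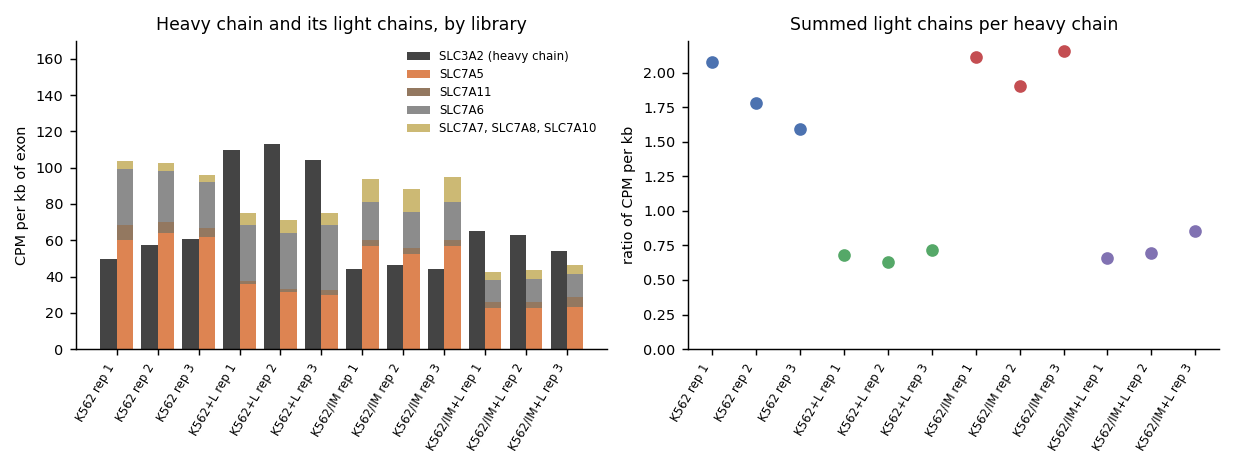
Left, SLC3A2 (dark bars) and its stacked light chains in CPM per kb of exon, for each of the 12 libraries. Right, summed light chains divided by SLC3A2. The ratio lies between 1.59 and 2.16 in the 6 libraries of K562 and K562/IM and between 0.627 and 0.853 in the other 6.

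Between the lines without lycorine, 6 of the 10 members were called, 1 higher (SLC38A2) and 5 lower in K562/IM (SLC6A9, SLC7A11, SLC1A4, SLC1A5, SLC3A2). K562/IM was kept in 5 µM imatinib and K562 without it, so that acquired resistance and the drug itself cannot be told apart. Over 13406 genes, 30.1% were called higher and 27.1% lower. SLC6A9 alone passed the fold threshold as well, against 19.1% of all genes.

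SLC6A9, the glycine carrier, stood at 7.2, 6.6 and 6.3 CPM in K562/IM against 23.5 or more in K562. The groups were far apart, with a log2 fold change of -1.91 (SE 0.10, adjusted p = 6.2e-06). The erythroid genes moved with it, 23 of 29 lower and 2 higher (HBE1, UROS) in K562/IM, and their part in this result was not tested. SLC38A2 went the other way, from 381, 308 and 264 CPM in K562 to 494, 504 and 477 in K562/IM. Its log2 fold change was 0.63 (SE 0.13, adjusted p = 0.0037), without overlap.

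Both small neutral amino acid exchangers were lower in the resistant line. SLC1A4 was at 61.8, 64.3 and 63.2 CPM in K562 and at 42.4, 43.6 and 43.6 in K562/IM (log2 fold change -0.55, SE 0.066, adjusted p = 3.1e-04). SLC1A5 was at 452, 498 and 535 CPM against 353, 349.9 and 354.5 (log2 fold change -0.49, SE 0.076, adjusted p = 0.0011). Neither pair of groups overlapped, and the K562/IM libraries lay within 1.03-fold of each other for both genes.

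The cystine carrier SLC7A11 had 35.9, 33.0 and 33.0 CPM in K562/IM, below all K562 libraries, with a log2 fold change of -0.86 (SE 0.18, adjusted p = 0.0049). SLC3A2 had 229, 241 and 228 CPM in K562/IM, with a log2 fold change of -0.32 (SE 0.086, adjusted p = 0.014). The SLC3A2 call was lost when counts were scaled by library size alone (log2 fold change -0.13, adjusted p = 0.19) and without replicate 2 of K562, replicate 1 of K562/IM or replicate 3 of K562/IM (-0.31 to -0.30, adjusted p from 0.059 to 0.060). SLC7A5, at 269, 249.4 and 270.1 CPM, missed the threshold (log2 fold change -0.16, SE 0.067, adjusted p = 0.070), and passed with DESeq2 (-0.18, adjusted p = 0.028) and without K562 replicate 1 (-0.22, adjusted p = 0.016). SLC7A1 and SLC43A1 overlapped K562, with intervals from -0.22 to 0.23 and from -0.32 to 0.030, and SLC43A1 passed without K562 replicate 1 (-0.24, adjusted p = 0.027). The interval of SLC38A1 was wide, from -0.88 to 1.18. Without K562 replicate 3 its log2 fold change was -0.32 (adjusted p = 0.024) in place of 0.15.

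Other markers moved between these lines too. The summed level of 10 megakaryocytic genes was 8.0 to 9.9 CPM in K562 and 195 to 216 in K562/IM, where 4 of the 10 averaged 1 CPM or more and GP9, PF4, PPBP and TREML1 were at 0. The 5 T-lymphoid genes summed to 22.0 to 23.6 CPM in K562/IM and to 3.05 at most in the other groups, and the 5 fibroblast genes to 20.1 to 25.1 and to 1.34 at most. Only 1 of the 5 T-lymphoid and 3 of the 5 fibroblast genes averaged 1 CPM or more in K562/IM. The B-lymphoid genes stayed under 3 CPM in sum, with MS4A1 at 0 in every library. The epithelial genes, 1 of 5 at 1 CPM or more, ran from 43.1 to 48.3 CPM in K562/IM and from 123 to 132 in K562. Their part in the transporter differences was not tested.

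**Figure D3:**
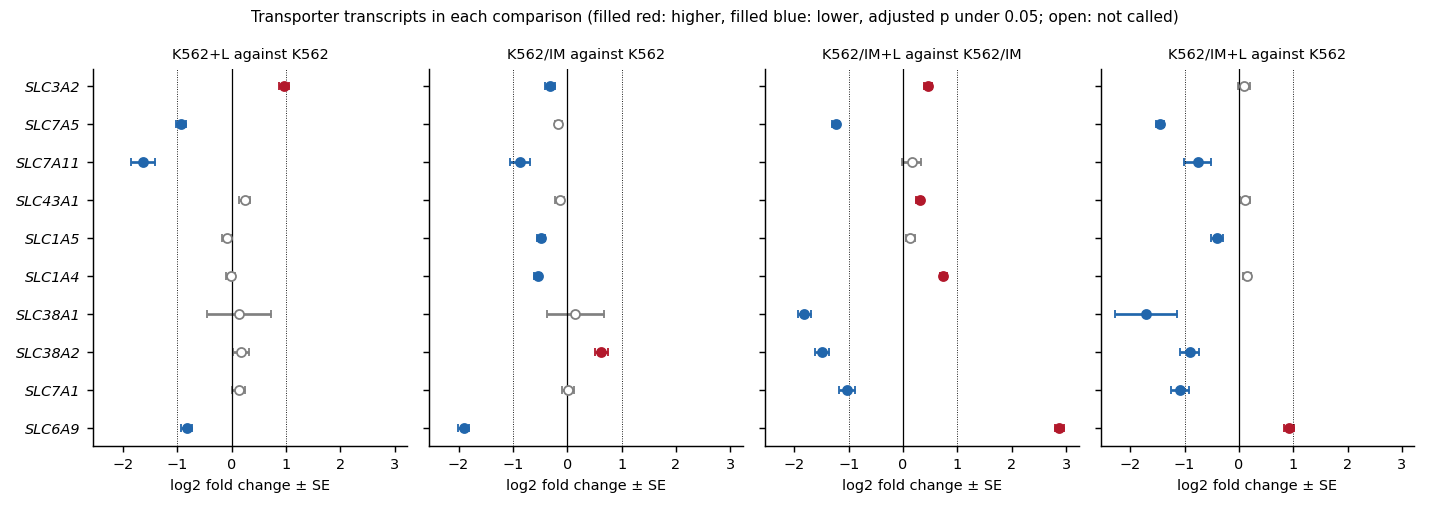
log2 fold change (horizontal axes) with its SE for the 10 transporters in 4 comparisons. Filled red points were higher and filled blue points lower at an adjusted p under 0.05, and open points were not called. SLC7A5 is blue in every panel but the second, and SLC6A9 changes side between the first and the third panel.

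In the labelled libraries, 8 of the 10 members differed from K562/IM, 4 higher (SLC6A9, SLC1A4, SLC3A2, SLC43A1) and 4 lower (SLC38A1, SLC38A2, SLC7A5, SLC7A1). Over 13727 genes, 33.2% were called higher and 33.6% lower. The 4 lower members and SLC6A9 passed the fold threshold as well, against 28.5% of all genes.

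SLC6A9 stood at 48.3, 45.8 and 50.7 CPM in these libraries, 7.35 times its level in K562/IM (log2 fold change 2.88, SE 0.090, adjusted p = 4.7e-07). Of the 29 erythroid genes 28 were higher here too, and their part in the rise of SLC6A9 was not tested. The summed megakaryocytic level was 27.2 to 29.3 CPM in the labelled libraries, below that of K562/IM, and the epithelial level was 84.5 to 105, above it. Their part in the transporter differences was not tested either. CCDC24, which shares 404 exon bases with SLC6A9 on the other strand, averaged 1.64 CPM in K562/IM and 3.95 in the labelled libraries. The counting strand is not given in the sources used here, and reads of overlapping genes could not be told apart.

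The sodium-coupled carriers SLC38A1 and SLC38A2 were both lower. SLC38A1 went from 245, 242 and 246 CPM to 66.2, 57.6 and 80.3 (log2 fold change -1.82, SE 0.12, adjusted p = 1.5e-05). SLC38A2 went from 494, 504 and 477 to 166, 145 and 205 (log2 fold change -1.49, SE 0.13, adjusted p = 4.5e-05). In each case the highest labelled library was below the lowest K562/IM library.

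SLC7A5 was at 108.4, 108.1 and 111 CPM, with a log2 fold change of -1.24 (SE 0.067, adjusted p = 4.8e-06). The arginine carrier SLC7A1 was at 42.9, 42.7 and 59.7 against 102, 93.2 and 109 (log2 fold change -1.04, SE 0.15, adjusted p = 5.4e-04). Neither overlapped K562/IM.

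SLC1A4 rose to 72.04, 68.9 and 71.9 CPM (log2 fold change 0.74, SE 0.062, adjusted p = 3.8e-05), and the heavy chain SLC3A2 to 336, 325 and 279.7 (log2 fold change 0.46, SE 0.082, adjusted p = 0.0018). SLC43A1 had 62.4, 59.2 and 56.3 CPM against 50.2, 46.2 and 50.6 (log2 fold change 0.30, SE 0.073, adjusted p = 0.0077). The SLC43A1 call was lost with library size alone (log2 fold change 0.11, adjusted p = 0.18), a scaling that moved the median of all genes by -0.19. SLC1A5 (404, 392 and 345 CPM, interval -0.011 to 0.28) was not called, though it passed without replicate 3 of the labelled group (log2 fold change 0.20, adjusted p = 0.0020). SLC7A11 (32.1, 30.4 and 48.7 CPM, interval -0.20 to 0.51) was not called.

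Set against K562, the same libraries had 1 member higher (SLC6A9) and 6 lower (SLC7A5, SLC7A1, SLC38A1, SLC38A2, SLC7A11, SLC1A5), and over 13307 genes 28.2% were called higher and 27.8% lower. SLC7A5, SLC7A1 and SLC38A1 passed the fold threshold as well, against 23.8% of all genes. This comparison shares its libraries with those above.

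SLC6A9 was 1.90 times its K562 level (log2 fold change 0.92, SE 0.095, adjusted p = 2.0e-04), without overlap. SLC7A5 had the lowest log2 fold change among the members that did not overlap K562, -1.45 (SE 0.076, adjusted p = 1.4e-05). SLC7A1 differed by -1.08 (SE 0.16, adjusted p = 0.0012) and SLC38A2 by -0.91 (SE 0.17, adjusted p = 0.0034). SLC1A4 was not called (0.15, adjusted p = 0.12) and passed with upper-quartile scaling (0.30, adjusted p = 0.0100) or all 12 libraries in the fit (0.17, adjusted p = 0.019). The calls of SLC1A5 (log2 fold change -0.40, adjusted p = 0.015), SLC7A11 (-0.76, adjusted p = 0.034) and SLC38A1 (-1.72, adjusted p = 0.036) each depended on single libraries. Without K562 replicate 2 all 3 were lost (adjusted p from 0.054 to 0.093), and SLC7A11 and SLC38A1 overlapped K562. Without K562 replicate 1, SLC7A11 was at -0.52 (adjusted p = 0.087) and SLC38A1 at -1.27 (adjusted p = 0.10). Leaving out replicate 1 or 2 of the labelled group ended both calls too, and leaving out replicate 3 ended that of SLC38A1.

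Whether the lycorine effects of the 2 lines differed was examined with an interaction term fitted to the 12 libraries, under the labels as deposited. It was called for 8 of the 10 members, 3 with a positive and 5 with a negative difference. Over 13995 genes, 29.9% were positive and 31.7% negative. SLC6A9 had the largest difference among the members, 3.68 (SE 0.13, adjusted p = 2.1e-09), since it was lower with lycorine in K562 and higher in the labelled libraries. SLC7A11 (1.75, SE 0.31, adjusted p = 4.5e-04) was lower in K562+L and uncalled in the labelled libraries. SLC38A2 (-1.68, SE 0.21, adjusted p = 2.9e-05) and SLC7A1 (-1.19, SE 0.20, adjusted p = 2.7e-04) were the reverse, uncalled in K562+L and lower in the labelled libraries. SLC3A2 and SLC7A5 moved in the same direction in both lines, with differences of -0.53 (adjusted p = 0.0031) and -0.33 (adjusted p = 0.016). The SLC38A1 difference (-1.98, SE 0.70, adjusted p = 0.028) was lost in 4 of the fits that left out a library, without replicate 1 or 2 of K562+L or of the labelled group (-1.96 to -1.78, adjusted p from 0.053 to 0.067).

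ATF4 itself stood at 486 ± 37.2 CPM (SD, n = 3) in K562, 305 ± 17.6 in K562+L, 405 ± 5.41 in K562/IM and 569 ± 59.9 in the labelled libraries. It fell in K562+L (log2 fold change -0.67, adjusted p = 0.0014) and in K562/IM (-0.26, adjusted p = 0.016), and rose in the labelled libraries against K562/IM (0.52, adjusted p = 0.0012). Of 25 tested genes of the ATF4 axis other than the members, 18 were lower and 1 higher (DDIT3) in K562+L, with a median log2 fold change of -0.76 against -0.00012 over all genes. CHAC1, which breaks down glutathione, fell by 3.59 on the log2 scale (SE 0.28, adjusted p = 1.8e-04) in K562+L. PHGDH and PSAT1 of serine synthesis fell by 2.45 (SE 0.16, adjusted p = 8.8e-05) and 1.83 (SE 0.085, adjusted p = 3.8e-05). In K562/IM, 4 of the 25 were higher (DDIT3, DDIT4, CTH, SESN2) and 14 lower, STC2 (-1.30) and ATF5 (-1.19) past the fold threshold. Against K562/IM, 7 were higher and 8 lower among the labelled libraries. The shares of all genes called in each comparison are given above. DDIT4, an inhibitor of mTOR signaling, rose by 1.21 (SE 0.062, adjusted p = 3.7e-06) and CHAC1 by 1.17 (SE 0.093, adjusted p = 3.0e-05), while PSAT1 fell by 1.03 (SE 0.074, adjusted p = 1.8e-05). Against K562, 3 were higher and 14 lower there, with DDIT4 (1.63), CHAC1 (1.45) and DDIT3 (0.98) the higher and PSAT1 (-1.88), WARS1 (-1.62) and STC2 (-1.60) among the lower.

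The 5 members whose windows held TGATGNAA did not move alike. In K562+L, where ATF4 fell, SLC3A2 was higher and SLC1A4, SLC1A5, SLC38A1 and SLC7A1 were not called. In the labelled libraries against K562/IM, where ATF4 rose, SLC3A2 and SLC1A4 were higher, SLC38A1 and SLC7A1 lower, and SLC1A5 not called.

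The rest of the carriers were read by place. Over all genes, 18.2% were called higher and 19.0% lower in K562+L, and 30.1% and 27.1% in K562/IM. In the labelled libraries the shares were 33.2% and 33.6% against K562/IM, and 28.2% and 27.8% against K562. These shares stand beside the counts for each place. Of 30 other amino acid carriers of the plasma membrane, 9 averaged at least 1 CPM in some group and 6 in all 4. In K562+L 1 was higher (SLC7A8) and 2 lower (SLC6A19, SLC6A6) of 11 tested. In K562/IM 3 were higher (SLC16A10, SLC7A8, SLC3A1) and 4 lower (SLC6A19, SLC38A5, SLC43A2, SLC7A6) of 10. Against K562/IM, the labelled libraries had 4 higher (SLC6A19, SLC38A3, SLC43A2, SLC38A5) and 4 lower (SLC16A10, SLC7A8, SLC6A6, SLC7A6) of 10 tested. Against K562, 3 were higher (SLC38A3, SLC43A2, SLC6A19) and 4 lower (SLC16A10, SLC7A6, SLC6A6, SLC38A5) of 10.

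SLC6A19, a carrier of neutral amino acids best known from intestine and kidney, had 28.8 ± 1.36 CPM (SD, n = 3) in K562 and 12.1 ± 1.1 in K562+L (log2 fold change -1.26, adjusted p = 2.2e-04). It had 1.1 ± 0.139 in K562/IM (-4.71, adjusted p = 3.8e-07) and 44.6 ± 2.16 in the labelled libraries (5.36 against K562/IM, adjusted p = 1.8e-07). The order of its 4 groups was that of SLC6A9. SLC16A10, which carries aromatic amino acids, lay between 6.30 and 6.65 CPM in K562/IM and under 0.5 CPM in every other library, and both of its K562/IM comparisons passed (adjusted p = 2.1e-06 and 2.4e-05).

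SLC7A8 rose from 25.4 ± 0.624 CPM in K562 to 77.7 ± 4.96 in K562/IM (log2 fold change 1.61, adjusted p = 3.8e-06) and was 27.8 ± 0.339 in the labelled libraries (-1.46 against K562/IM, adjusted p = 3.4e-06). SLC38A5, a glutamine carrier related to SLC38A1 and SLC38A2, fell from 199.5 ± 23.3 CPM in K562 to 84.4 ± 2.73 in K562/IM (-1.24, adjusted p = 3.6e-05). The taurine carrier SLC6A6 was below its K562/IM level in the labelled libraries (-1.097, adjusted p = 2.5e-04) and also below its K562 (-1.145, adjusted p = 7.6e-04) level, as SLC7A6 was against K562 (-1.19, adjusted p = 1.0e-04). SLC43A2, the relative of SLC43A1, rose there by 1.46 against K562/IM (adjusted p = 3.0e-05). SLC3A1, the heavy chain of the b0,+ system, and SLC38A3 averaged no more than 1.53 and 1.23 CPM in any group.

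Of the 9 lysosomal carriers, 8 were tested. In K562+L 3 of them rose, each by less than the fold threshold, and the other 5 did not pass, while 18.2% of all genes rose. They were SLC38A9, the arginine sensor of the lysosome that signals to mTORC1 (23.99 ± 3.52 to 42.3 ± 2.16 CPM, log2 fold change 0.82, SE 0.12, adjusted p = 0.0022), the cystine exporter CTNS (0.59, adjusted p = 0.0036) and SLC36A1. In K562/IM 1 was higher (SLC36A1) and 1 lower (SLC66A1). In the labelled libraries against K562/IM, 4 were higher (SLC66A1, SLC36A1, CTNS, SLC38A7) and 3 lower (MFSD12, SLC36A4, SLC38A9), with SLC66A1, an exporter of basic amino acids, at 1.16 (adjusted p = 1.4e-05), MFSD12, which imports cysteine into lysosomes, at -1.25 (adjusted p = 3.8e-05) and SLC38A9 at -0.25 (adjusted p = 0.042). Against K562, 2 were higher and 1 lower, SLC36A1 at 1.18 (adjusted p = 4.0e-04), SLC66A1 at 0.86 and MFSD12 at -1.58 (adjusted p = 1.3e-04).

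Of the 12 mitochondrial carriers, 11 were tested. In K562+L 1 was higher (SLC25A13) and 2 were lower (SLC25A29, SLC25A15), and SLC25A29, a carrier of basic amino acids, fell from 54.1 ± 5.11 to 14.6 ± 1.61 CPM (log2 fold change -1.89, SE 0.12, adjusted p = 8.2e-05). In K562/IM 1 was higher (SFXN3) and 5 were lower (SLC25A29, SLC25A38, SLC25A44, SFXN2, SLC25A15), and SFXN3, of the family of mitochondrial serine carriers, rose from 3.29 ± 0.261 to 25.2 ± 1.15 CPM (2.94, adjusted p = 9.7e-07). In the labelled libraries against K562/IM 1 was higher (SLC25A38) and 6 were lower, among them the glutamate carrier SLC25A22 (-1.61, adjusted p = 2.9e-06), SFXN3 (-1.23, adjusted p = 1.5e-05) and the ornithine carrier SLC25A15 (-1.21, adjusted p = 1.8e-05). Against K562, 2 were higher (SFXN3, SLC25A38) and 6 lower, with SFXN3 at 1.66 and SLC25A22, SLC25A15 and SFXN2 at -1.86, -1.51 and -1.12.

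**Figure D4:**
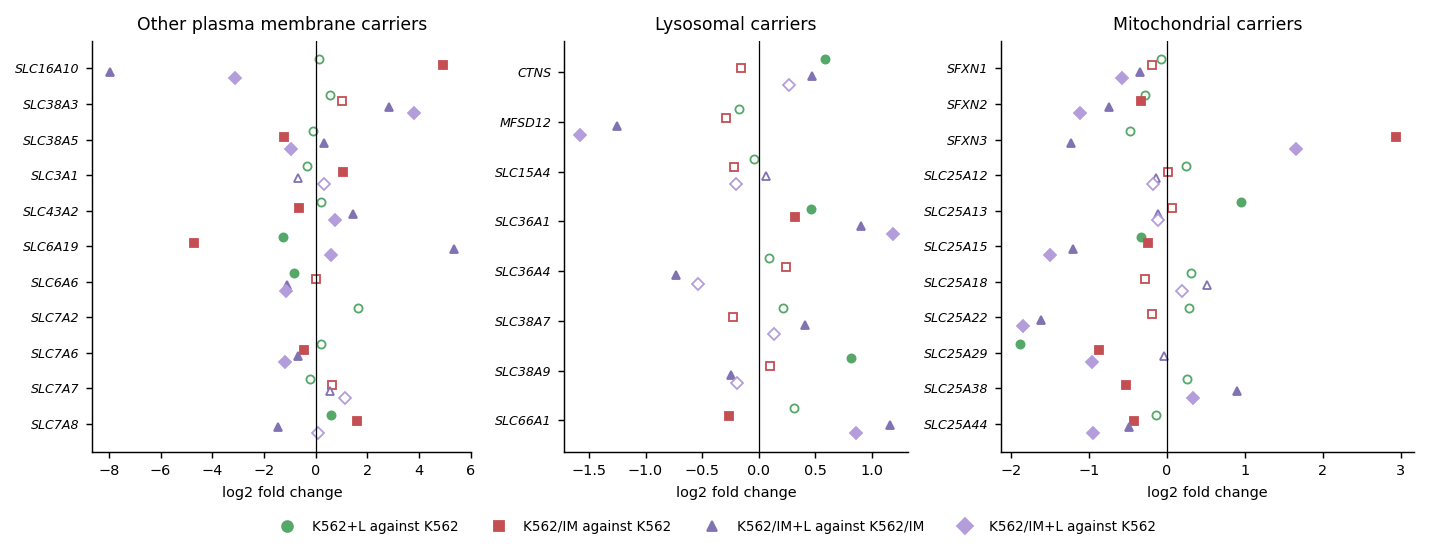
log2 fold change of the tested carriers outside the 10 members, by place in the cell, in 4 comparisons (symbols). Filled symbols passed at an adjusted p under 0.05, and the horizontal scales differ between panels. SLC6A19 reaches -4.71 in K562/IM and 5.36 in the labelled libraries, and no lysosomal carrier passes a log2 fold change of 2 in either direction.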

How the data were processed

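The members and the gene lists were chosen with earlier results of these data known. The authors deposited estimated counts per gene symbol for 12 polyA libraries, which are whole numbers and were not rounded. The submitters' processing notes name FastQC, STAR, StringTie, DESeq2 and hg38, without versions. Of 22956 values from 1 to 24, 41.7% are multiples of 4, against 25% of integers, so that counting noise may be larger than the counts give. R 4.3.3 with edgeR 4.0.16 was used. For each comparison low genes of the 6 libraries were removed (filterByExpr, minimum count 10), TMM factors were computed and quasi-likelihood models fitted, with Benjamini-Hochberg adjustment over all genes tested and calls at 0.05. The interaction used all 12. CPM used TMM over 12 libraries, and exon lengths and overlaps came from GENCODE release 29 (GRCh38), which matched 183 of 184 symbols. Genes outside the members were named where they passed, with an absolute log2 fold change over 1, a mean of at least 1 CPM in a group and no overlap, up to 3 per list and direction. SLC38A9, SESN2, CASTOR1 and ATF4 were named in any case, and other genes behind counts of 5 or fewer after their values were seen. For each member the 2 genes with the highest Pearson correlation of log2 CPM (pseudocount 0.5, mean CPM of at least 10) were named. A few genes that the rules would name were left out. On simulated counts for K562+L against K562, 125 of 187 genes changed by a log2 fold of 1 were recovered with 6 false calls among 13365, and for the interaction 108 of 196 with 6 among 13716. Far fewer genes were changed in the simulation than were called in the data, so that its rates need not hold for them. Alternatives used limma 3.58.1 and DESeq2 1.42.0, other scalings and filters, counts divided by 4, a replicate block and each library left out. The fit without replicate 3 of K562 and of K562+L was added after the data were seen.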

Additional observations from a re-analysis of the deposited data

Results flagged for a closer look

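With 3 libraries in each group, single outlying libraries were not tested for. The lycorine effect differed between the lines, as labelled, at an adjusted p under 0.05 for the interaction in 8 members. The difference was taken as K562/IM+L minus K562/IM, less K562+L minus K562. On the log2 scale it was 3.68 for SLC6A9, 1.75 for SLC7A11 and 0.74 for SLC1A4. It was -1.98 for SLC38A1, -1.68 for SLC38A2, -1.19 for SLC7A1, -0.53 for SLC3A2 and -0.33 for SLC7A5. Each value rests on the label of the fourth group. The summed erythroid level of that group, 49021 CPM or more, stood above that of every other library, and its part in these differences was not tested.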

How the results depend on the processing

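Of 870 alternative values for the fold changes of the 10 members, 811 kept their direction and their side of the threshold, 27 lost a call, 11 gained one and 21 turned in sign. The replicate number as a block left 4 of 7 calls for the labelled libraries against K562 and changed no other count of members called by over 1.5 times. The numbers were not taken as pairs, since only 4 of 18 pairs of same-numbered libraries correlated over 0.1 (-0.65 to 0.49). Leaving out each library gave 4 to 7 calls in the comparison with K562. In K562+L, the share of all genes called fell from 37.3% to between 21.9% and 24.2% with the block, without K562 replicate 2, K562+L replicate 1 or K562+L replicate 3, or without replicate 3 of both K562 and K562+L.

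Sign changes touched fold changes not called in the main analysis. With library size alone, which moved the median of all genes by 0.19 in K562/IM against K562 and by -0.19 in the labelled libraries against K562/IM, they were 0.0044 for SLC1A4 in K562+L, 0.026 for SLC7A5 and 0.048 for SLC43A1 in K562/IM, -0.053 for SLC1A5 and -0.024 for SLC7A11 in the labelled libraries against K562/IM, and -0.15 for SLC43A1 in the interaction. Under DESeq2 and its size factors SLC7A1 was at -0.010 in K562/IM. Without replicate 3 of both SLC1A5 was at 0.022, SLC38A1 at -0.010 and SLC38A2 at -0.047 in K562+L, and SLC43A1 at -0.048 in the interaction. Leaving out single libraries gave -0.043 to 0.0030 for SLC1A4 and -0.32 to 0.57 for SLC38A1 in K562+L, -0.097 to 0.086 for SLC7A1 and -0.32 to 0.57 for SLC38A1 in K562/IM, -0.092 to 0.28 for SLC7A11 in the labelled libraries against K562/IM, and -0.028 to 0.12 for SLC43A1 in the interaction. The SLC7A5 share of light chains changed by 0.050 percentage points in K562/IM and by -9.02 in the labelled libraries against K562/IM without division by length. The SLC7A5 interaction was lost with upper-quartile scaling (-0.20, adjusted p = 0.12), which moved the median of all genes by 0.13. The causes were not tested. The SLC1A5 interaction passed with that scaling (0.33, adjusted p = 0.033) and without replicate 3 of the labelled group (0.26, adjusted p = 0.046). Each member had at least 599 counts in every library.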

Other observations

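The sensors that report amino acid supply to mTORC1 were read beside the transporters. Of 33 tested genes of the sensing machinery, 8 were higher and 8 lower in K562+L, each by less than 1 on the log2 scale. In K562/IM 7 were higher and 10 lower, and in the labelled libraries against K562/IM 9 were higher and 6 lower. Against K562, 9 of the 33 were higher and 5 lower there. SESN3, NPRL3 (2.02) and CASTOR2 (1.36) were among the higher, and SEH1L (-1.08), DEPDC5, RHEB, MTOR and ITFG2 were the lower. Over all genes, 18.2% were called higher and 19.0% lower in K562+L, and 30.1% and 27.1% in K562/IM. In the labelled libraries the shares were 33.2% and 33.6% against K562/IM, and 28.2% and 27.8% against K562. SESN3, a stress-induced relative of the leucine sensor SESN2, was at 0.522 ± 0.218 CPM (SD, n = 3) in K562, 0.654 ± 0.133 in K562+L, 54.1 ± 3.89 in K562/IM and 4.22 ± 1.05 in the labelled libraries. SESN2 itself fell in K562+L (62.6 ± 3.18 to 36.2 ± 4.65 CPM, log2 fold change -0.79, SE 0.11, adjusted p = 0.0020) and rose in K562/IM (0.31, adjusted p = 0.0083). CASTOR1, the cytosolic arginine sensor, averaged between 0.611 and 2.35 CPM. NPRL3, a subunit of the GATOR1 complex that restrains mTORC1, rose in the labelled libraries from 82.2 ± 3.20 to 358 ± 38.1 CPM (2.15, SE 0.093, adjusted p = 1.8e-06). Of the 29 erythroid genes 28 were higher than in K562/IM too, and their part in the rise of NPRL3 was not tested. Within the KICSTOR complex, which anchors GATOR1, KPTN fell in K562/IM (-1.39, adjusted p = 1.3e-04) and rose in the labelled libraries (2.17, adjusted p = 6.8e-06).

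Cystine imported by SLC7A11 feeds glutathione, and 9 genes of that use were tested. Their counts stand beside the shares of all genes given above for each comparison. In K562+L, where SLC7A11 fell, 3 were higher and 3 lower. The glutathione synthesis subunits GCLC (0.42, adjusted p = 0.023) and GCLM (0.44, adjusted p = 0.023) and the thioredoxin reductase TXNRD1 (0.35, adjusted p = 0.028) rose, while GPX4 (-0.68, adjusted p = 0.014), CTH (-1.01, adjusted p = 5.2e-04) and CHAC1 fell. In K562/IM 1 was higher (CTH) and 3 were lower (GPX4, GSR, GCLM). In the labelled libraries 3 were higher (CHAC1, GPX4, GCLC) and 5 lower (TXNRD1, CTH, GSR, GSS, GCLM) than in K562/IM, with TXNRD1 at -1.51 (adjusted p = 9.0e-06), and 2 higher (CHAC1, GCLC) and 4 lower (TXNRD1, GSR, GCLM, CTH) than in K562, with TXNRD1 at -1.42 (adjusted p = 8.2e-05).

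The genes most like each member over the 12 libraries were picked from 9320 by correlation of log2 CPM, which follows the group means and shares libraries. For SLC6A9 they were ATP1B2 (r = 0.99) and LMO2 (r = 0.99), an erythroid transcription regulator. For SLC7A11 EIF2S3 (r = 0.93) is given, and for SLC7A5 they were NQO2 (r = 0.99) and MYEOV (r = 0.99). SLC3A2 went with ATP6V1H (r = 0.98), a subunit of the proton pump, and MTG1 (r = 0.98), and SLC7A1 with the mitotic genes ANAPC1 (r = 0.99) and KIF2A (r = 0.99). For SLC1A4 they were ADGRD1 (r = 0.99) and IFIH1 (r = 0.99), for SLC1A5 ADRM1 (r = 0.99) and THOC5 (r = 0.99), and for SLC38A2 THUMPD1 (r = 0.996) and RPS6KA3 (r = 0.99). The closest genes to SLC38A1 were CCPG1 (r = 0.92) and ACSL1 (r = 0.90), and to SLC43A1 KAT5 (r = 0.97) and SGF29 (r = 0.96). Among the members themselves, SLC1A4 and SLC6A9 had r = 0.91 and SLC38A2 and SLC6A9 r = -0.92.

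Exons of SLC7A11 share 865 bases with SLC7A11-AS1 on the other strand, those of SLC1A5 share 780 with AC008622.2, and those of SLC7A5 share 271 with AC126696.2. Reads over these stretches could not be assigned by strand here.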
